A study of Mus musculus with 58 samples.

Results

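The nuclear genes for the subunits of respiratory complex I were followed in the prefrontal cortex of young mice that had received lithium, fluoxetine or vehicle. The members are the protein-coding genes whose GRCm38 symbol is Ndufa, Ndufab, Ndufb, Ndufc, Ndufs or Ndufv followed only by a number. They were kept where 4 or more libraries reached a value of 10. There are 37 such genes among the 18088 of the deposited table, and 37 of 37 passed the filter. Ndufa4 carries such a symbol but encodes a subunit of cytochrome c oxidase (complex IV), and it is counted with the members because the symbols define them.

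Each of the 58 libraries came from the prefrontal cortex of a C57BL/6J mouse at postnatal day 25, just after 3 weeks of drug or vehicle, from day 3 to day 24, delivered to the pups through the mother's milk. The labels call the mice heterozygous (HT) or wildtype (WT) for Tanc2, which encodes a scaffold protein of excitatory synapses, and give females and males of each genotype for each drug. There were 5 mice for each sex in each of the 6 arms of genotype and drug, apart from 4 males in the WT vehicle arm and 4 in the HT lithium arm, which makes 12 groups and 9 or 10 mice an arm. The labels describe neither the allele nor the litters, doses or dams, and littermates that shared a treated dam cannot be told apart from separate replicates.

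Complex I takes electrons from NADH, passes them along a chain of iron-sulfur clusters to ubiquinone, and pumps protons across the inner mitochondrial membrane. Its L shape consists of a matrix arm, with an NADH-oxidizing N module at the tip and a ubiquinone-reducing Q module at the base, and of a membrane arm with a proximal and a distal part. A conserved catalytic core is shared with bacteria, and the mitochondrial genome codes for the core subunits of the membrane arm. The other subunits, called accessory, are nuclear-coded and serve assembly and stability. Neurons depend on the enzyme for much of the ATP spent on synaptic signalling.

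Recovered library totals ran from 23270000 to 37800000 reads. Tanc2 was not lower in HT-labelled mice: its mean was 8093 normalized reads ± 381 (SD, n = 10; a normalized read is a read after division by its library's size factor) in HT vehicle mice and 7541 ± 387 (SD, n = 9) in WT vehicle mice. HT and WT below are therefore the labels' genotypes, and reads of the whole gene need not test an allele that the labels do not describe. Markers of neurons, astrocytes, oligodendrocytes, microglia, endothelial cells and red blood cells were all detected. The summed level of 8 markers of myelinating oligodendrocytes had a lower median with lithium, 114310 (range 93463 to 167001) against 144991 (91952 to 179401) with vehicle in WT and 101169 (72496 to 152543) against 119907 (71117 to 145863) in HT, and the ranges overlap. The summed level of 8 markers of striatal projection neurons, cells that a cortical dissection need not contain, was 4587 to 6723 in WT vehicle mice, 6018 to 19162 in WT lithium mice, 4455 to 5602 in HT vehicle mice and 5361 to 19162 in HT lithium mice. None of the 8 was at 0 in every library. The libraries also fell apart by reads of the predicted gene Gm10221. These were present in 27 libraries, namely all 19 lithium libraries, 5 of 5 HT fluoxetine females and 3 of 5 WT fluoxetine females, and absent from the other 31, which include every vehicle library. For lithium against vehicle, the drug and whatever this gene marks therefore cannot be told apart.

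Lithium-treated mice of both genotypes carried more mRNA of many complex I subunit genes than vehicle mice, by 8.40% to 33.5% for the genes that passed the test. The strongest were Ndufv2, an iron-sulfur subunit of the N module, Ndufc2 and Ndufa3 of the proximal membrane arm, Ndufb2 of the distal arm, and Ndufab1, the mitochondrial acyl carrier protein. A gene passed where limma with trend, fitted on log2(normalized reads + 1) over all 58 libraries, gave a Benjamini-Hochberg adjusted p under 0.05 over 17925 genes. In WT-labelled mice 13 of the 37 passed, all of them higher with lithium, while 7.47% of all genes passed (4.34% higher, 3.13% lower). In HT-labelled mice 19 of 37 passed, again all higher, against 16.3% of all genes (8.25% higher, 8.03% lower). The median log2 difference of the members was 0.14 in either genotype, with 35 of 37 above 0 in each, where the median over all genes was -0.0056 in WT and 4.9e-05 in HT.

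Ndufc2 is an accessory subunit of the proximal membrane arm. Its normalized reads ran from 1002 to 1253 (median 1181) in the 9 WT vehicle mice and from 1341 to 1611 (median 1487) in the 10 WT lithium mice. In HT-labelled mice they ran from 1133 to 1243 (median 1195) with vehicle and from 1373 to 1831 (median 1537) with lithium. The lithium and vehicle mice did not overlap in either genotype. The log2 difference was 0.36 ± 0.05 (SE; limma adjusted p = 5.49e-07) in WT and 0.40 ± 0.05 (adjusted p = 1.12e-07) in HT.

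Ndufv2 binds an iron-sulfur cluster beside the flavin site where NADH is oxidized. Its values were 2062 to 2432 (median 2292) with vehicle and 2644 to 3119 (median 2907) with lithium in WT, and 1976 to 2404 (median 2207) against 2564 to 3627 (median 2871) in HT. Again every lithium mouse lay above every vehicle mouse of its genotype. The differences were 0.34 ± 0.04 (limma adjusted p = 3.65e-07) and 0.42 ± 0.04 (adjusted p = 5.12e-09) on the log2 scale.

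Ndufa3, a small accessory subunit of the proximal arm, ran from 756 to 1038 (median 954) in WT vehicle mice and from 1082 to 1372 (median 1209) in WT lithium mice, with no overlap. In HT-labelled mice the ranges were 887 to 1069 (median 972) and 1035 to 1582 (median 1157), and 7 of 9 lithium mice lay above the vehicle range. The log2 difference was 0.37 ± 0.06 in WT (limma adjusted p = 2.06e-05) and 0.27 ± 0.06 in HT (adjusted p = 0.000932).

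Ndufb2, a small accessory subunit of the distal arm, ran from 727 to 1008 (median 896) in WT vehicle mice and from 963 to 1313 (median 1199.9) in WT lithium mice, with 9 of 10 lithium mice above the highest vehicle mouse. In HT-labelled mice the ranges were 705 to 899 (median 860.2) and 943 to 1407 (median 1073), with no overlap. Its log2 difference was 0.41 ± 0.07 in WT (limma adjusted p = 2.27e-05) and 0.40 ± 0.07 in HT (adjusted p = 1.94e-05).

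Ndufab1 occurs in complex I as a carrier of an acyl chain and also serves mitochondrial fatty acid synthesis. It ran from 1253 to 1548 (median 1380.4) in WT vehicle mice and from 1512 to 1839 (median 1644) in WT lithium mice, with 9 of 10 lithium mice above the vehicle range. In HT-labelled mice the ranges, 1290.4 to 1382 (median 1342) and 1552 to 2257 (median 1699), did not overlap. The differences were 0.27 ± 0.04 (limma adjusted p = 4.95e-05) and 0.37 ± 0.04 (adjusted p = 1.12e-07). Of its 31-base words, 9.51% also occur in other genes, mostly pseudogenes, so its reads are less certain than those of Ndufc2 and Ndufv2, which share none.

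**Figure D1:**
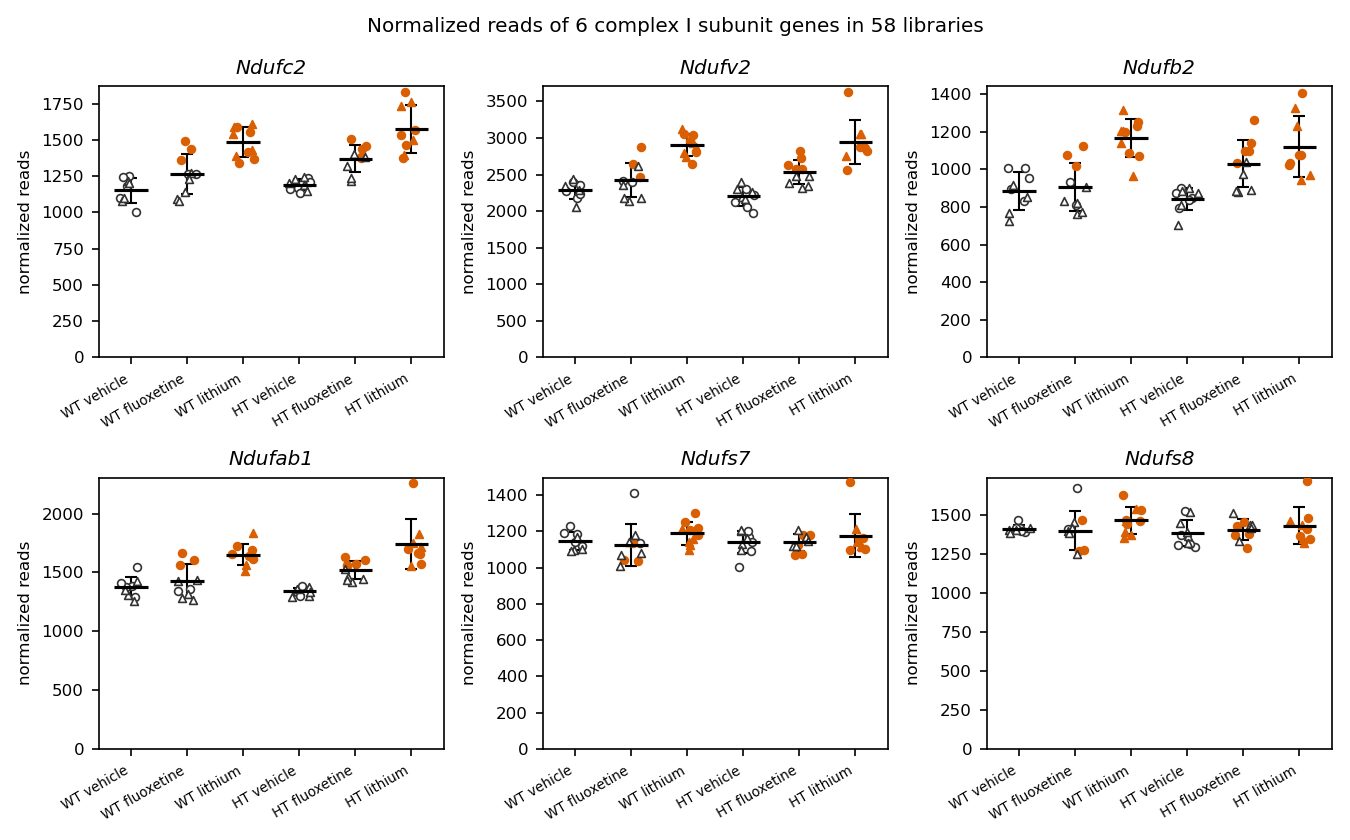
Normalized reads (vertical axis, linear from 0) of 6 subunit genes in the 6 arms of genotype and drug; circles are females, triangles males, orange symbols libraries with Gm10221 reads, and bars the mean ± SD. Ndufc2 and Ndufv2 separate lithium from vehicle mice without overlap in both genotypes, whereas the core genes Ndufs7 and Ndufs8 overlap in all arms.

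Without overlap and higher in lithium mice were 4 members in WT (Ndufa3, Ndufb9, Ndufc2 and Ndufv2), where 0.63% of all genes were, and 4 in HT (Ndufab1, Ndufb2, Ndufc2 and Ndufv2), where 0.72% were. The 13 genes that passed in WT all passed in HT too, which is 100% of the WT list and 68.4% of the HT list. These comparisons share no mice. They do share 1 fit with its estimate of the spread, and the labels do not say whether they share litters. The 6 that passed in HT alone were Ndufs1, Ndufs4, Ndufb3, Ndufb8, Ndufb10 and Ndufb11. That does not show a difference between genotypes: the lithium by genotype interaction passed for 0 of 37 members and 0% of all genes (limma; 0 members at unadjusted p under 0.05, 0 with edgeR and 0 with DESeq2), with a median of 0.00095. The interaction with the smallest p was that of Ndufs1, 0.09 ± 0.05 on the log2 scale (limma adjusted p = 0.84, 95% interval -0.02 to 0.20).

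Most members that rose belong to the membrane arm. Of the proximal membrane arm, 7 of 9 passed in each genotype: Ndufa1, Ndufa3, Ndufa8, Ndufa10, Ndufa13, Ndufc2 and Ndufs5, with Ndufa11 and Ndufc1 not passing. Of the distal membrane arm, with which Ndufab1 was counted, 4 of 11 passed in WT (Ndufb2, Ndufab1, Ndufb9 and Ndufb5) and 8 of 11 in HT. Of the N module, 2 of 10 passed in WT (Ndufv2 and Ndufa12) and 4 of 10 in HT, where Ndufs1, the largest iron-sulfur subunit, and Ndufs4, an accessory subunit of late assembly, joined them. Of the Q module 0 of 6 passed in either genotype (limma; 0 at unadjusted p under 0.05 in WT and 1 in HT). The median log2 difference of the Q module was 0.05 in WT and 0.04 in HT, against 0.19 and 0.22 for the proximal arm. Differences between modules were not tested. Some calls, most of them in the membrane arm, depended on single libraries. Of 19 WT fits, each without 1 library, Ndufb5 passed in 2, Ndufa8 in 4, Ndufa1 and Ndufs5 in 7 and Ndufa10 in 15. The other WT genes that passed did so in all 19. In HT, Ndufa8 passed in 6 of 19, Ndufa1 in 8, Ndufb10 in 9, Ndufb11 and Ndufs1 in 13 and Ndufb3 in 18.

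Among the 7 nuclear-coded core subunits, Ndufv2 was the only one that passed in WT, and Ndufv2 and Ndufs1 passed in HT. Ndufs8, which binds iron-sulfur clusters next to Ndufs7, ran from 1384 to 1465 (median 1403) in WT vehicle mice and from 1350.5 to 1627 (median 1460.3) in WT lithium mice, which overlap. Its log2 difference was 0.05 ± 0.04 in WT (95% interval -0.03 to 0.14) and 0.04 ± 0.04 in HT (-0.04 to 0.13), which leaves out rises as large as those of Ndufc2. Ndufs7 ran from 1091 to 1228 with vehicle and from 1096 to 1300.4 with lithium in WT and differed by 0.05 ± 0.04 there and 0.04 ± 0.04 in HT (limma adjusted p = 0.53 and 0.62). Ndufs3 ran from 1830 to 2083 and from 1984 to 2205 in the same mice, and differed by 0.08 ± 0.05 in each genotype (limma adjusted p = 0.34 in WT and 0.29 in HT). Ndufv1, which holds the flavin, ran from 2871 to 3231 with vehicle and from 3048 to 3447 with lithium in WT. It differed by 0.08 ± 0.04 in WT and 0.07 ± 0.04 in HT (limma adjusted p = 0.21 and 0.25). Lithium and vehicle mice overlap for each of these 3 genes. Ndufs1 ran from 3648 to 4258 (median 4011) in HT vehicle mice and from 4029 to 4635 (median 4333) in HT lithium mice, which overlap; the difference was 0.12 ± 0.04 (limma adjusted p = 0.0305) there and 0.03 ± 0.04 (adjusted p = 0.78) in WT. Ndufa9 and Ndufa7 were the members with values below 0 in both genotypes, -0.05 ± 0.04 and -0.02 ± 0.05 in WT, and neither passed. Ndufa4 of complex IV ran from 3984 to 4753 with vehicle and from 3840 to 5412 with lithium in WT. It differed by 0.10 ± 0.08 in WT and 0.17 ± 0.08 in HT and did not pass (limma adjusted p = 0.50 and 0.14).

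**Figure D2:**
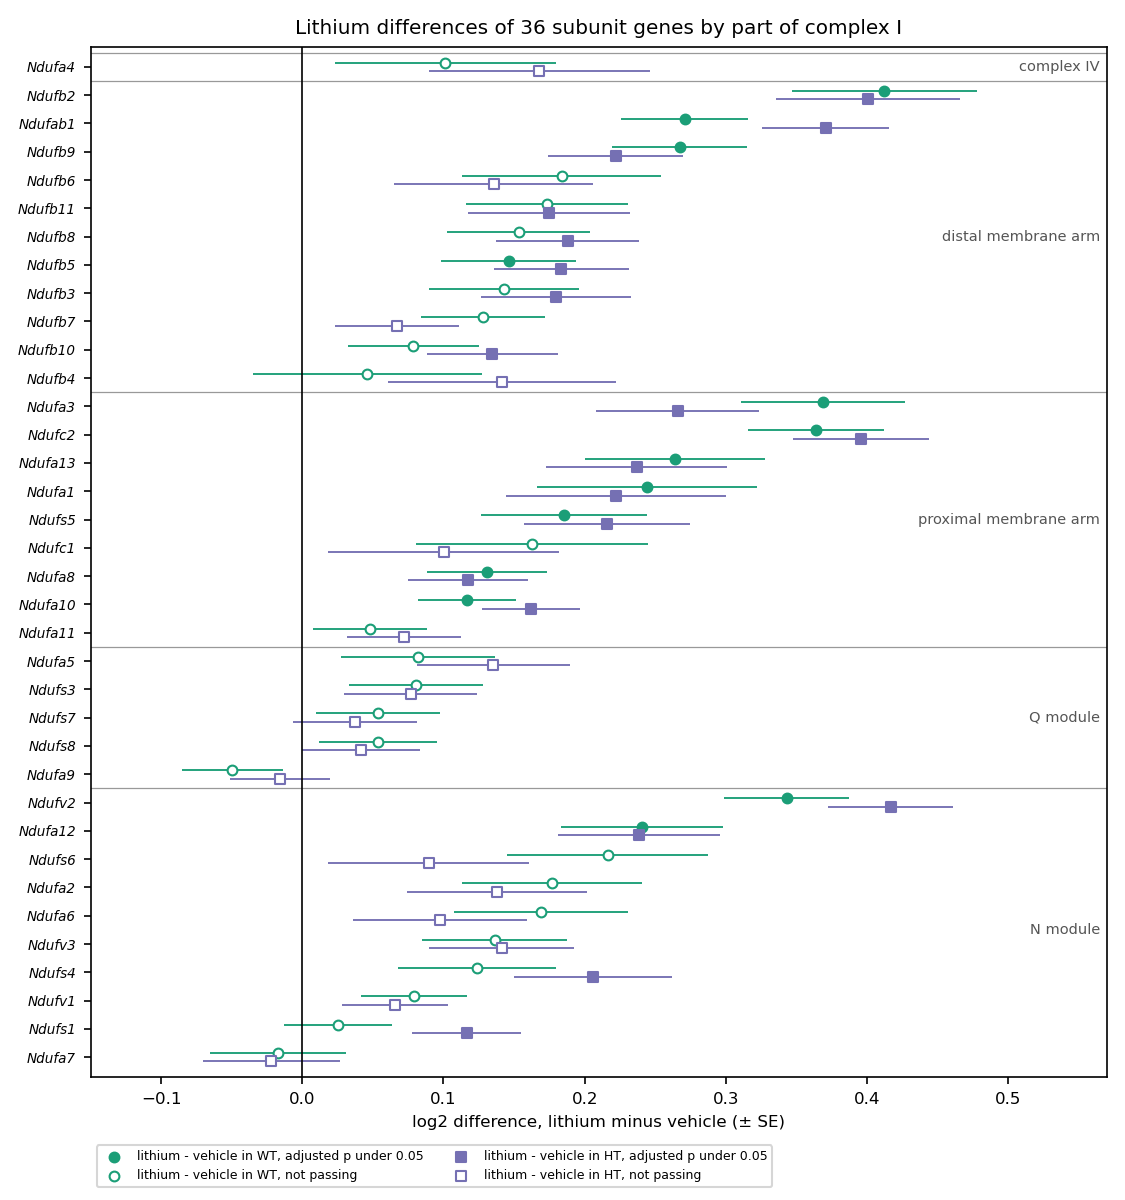
Log2 difference, lithium minus vehicle, with its SE, for 36 of the 37 genes in WT-labelled (circles) and HT-labelled (squares) mice, grouped by their place in the enzyme; filled symbols passed at an adjusted p under 0.05. Filled symbols are absent from the Q module and make up 7 of 9 genes of the proximal membrane arm in each genotype.

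Promoter sequences are shown for 3 of the genes with the smallest p for lithium, for Ndufa12 and Ndufs5, which also passed in both genotypes, and for Ndufa9, which did not pass, since members that move together raise the question of shared elements near the start. The 120 bases before the RefSeq transcription start (GRCm38.p6, written 5′ to 3′ on the gene's strand) are given, with matches to 3 short motifs in capitals; the motifs were searched on both strands. They are TGCGCA, the core of the NRF1 site, CGGAAG, an ETS core that GABP binds, and ATGGCG, the core of the YY1 site.
Ndufc2, chr7:97399883-97400002, plus strand: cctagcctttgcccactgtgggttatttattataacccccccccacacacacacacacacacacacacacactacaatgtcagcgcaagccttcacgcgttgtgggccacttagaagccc
Ndufv2, chr17:66101560-66101679, minus strand: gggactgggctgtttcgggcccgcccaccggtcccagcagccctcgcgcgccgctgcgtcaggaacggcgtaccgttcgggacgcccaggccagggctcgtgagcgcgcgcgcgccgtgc
Ndufb2, chr6:39592445-39592564, plus strand: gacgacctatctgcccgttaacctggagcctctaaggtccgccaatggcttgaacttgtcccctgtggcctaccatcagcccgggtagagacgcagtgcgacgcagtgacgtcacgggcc
Ndufa12, chr10:94198915-94199034, plus strand: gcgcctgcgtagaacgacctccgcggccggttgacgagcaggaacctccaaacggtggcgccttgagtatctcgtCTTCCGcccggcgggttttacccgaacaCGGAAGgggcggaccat
Ndufs5, chr4:123718187-123718306, minus strand: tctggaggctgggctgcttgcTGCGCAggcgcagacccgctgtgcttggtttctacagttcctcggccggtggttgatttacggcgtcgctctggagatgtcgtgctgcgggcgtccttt
Ndufa9, chr6:126849145-126849264, minus strand: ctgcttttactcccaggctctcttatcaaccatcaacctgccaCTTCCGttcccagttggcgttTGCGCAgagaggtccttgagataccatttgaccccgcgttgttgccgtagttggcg
No match lies in the stretches of Ndufc2, Ndufv2 and Ndufb2, which says only that these letters are not in these windows. That of Ndufa12 holds 2 ETS matches, that of Ndufs5 an NRF1 match and that of Ndufa9 an ETS and an NRF1 match, so matches stand in front of genes that passed and of one that did not. RefSeq promoters of 300 bases (250 before to 50 after the start) were matched for 33 of the 37 members by symbol. The NRF1 core was in 10 of 33 genes (30.3%, against 11% of 17492 protein-coding genes), the YY1 core in 11 (33.3% against 12.4%) and the ETS core in 8 (24.2% against 23.5%). At least 1 of the 3 was in 22 of 33 members (66.7%, against 37% of all). Among members that passed with lithium in both genotypes, 6 of the 12 with a promoter held a match, and among those that passed in neither, 12 of 16 did.

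With fluoxetine, members passed in HT-labelled mice and fewer of them did than with lithium. There 5 of 37 members passed, all higher than with vehicle, while 3.54% of all genes passed (1.46% higher, 2.09% lower): Ndufb2 (0.28 ± 0.06 on the log2 scale, limma adjusted p = 0.00509), Ndufv2 (0.20 ± 0.04, adjusted p = 0.00326), Ndufc2 (0.20 ± 0.05, adjusted p = 0.00793), Ndufab1 (0.18 ± 0.04, adjusted p = 0.00906) and Ndufa10 (0.12 ± 0.03, adjusted p = 0.0283). The first 4 are also among the strongest with lithium, but both comparisons use the same vehicle mice. The median member difference was 0.053, with 30 of 37 above 0. Ndufab1 ran from 1423 to 1632 (median 1541) in the 10 HT fluoxetine mice, above the vehicle range of 1290.4 to 1382. It was the 1 member without overlap, where 0.0614% of all genes were. Ndufv2 ran from 2313 to 2817 (median 2526), with 7 of 10 mice above the vehicle maximum of 2404. Ndufb2 ran from 877 to 1260.04 (median 1038), with 7 of 10 above the vehicle range, and Ndufc2 from 1215 to 1504 (median 1383), with 8 of 10.

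In WT-labelled mice fluoxetine against vehicle passed for 0 of 37 members and 1.38% of all genes (0.469% higher, 0.915% lower; limma, 1 member at unadjusted p under 0.05, 0 with edgeR and 0 with DESeq2), with a median of 0.0073. Of the members 0 were higher without overlap, as were 0.0167% of all genes. Ndufc2 had the smallest p, 0.13 ± 0.05 (limma adjusted p = 0.24), followed by Ndufb3 at 0.10 ± 0.05. The fluoxetine by genotype interaction passed for 0 of 37 members and 0% of genes (limma; 4 members at unadjusted p under 0.05, 0 with edgeR and 0 with DESeq2). Its median was 0.062, and its smallest p values were those of Ndufb2 (0.24 ± 0.09, limma adjusted p = 0.79) and Ndufb4 (0.28 ± 0.11, adjusted p = 0.79). A difference between the genotypes in the response to fluoxetine was thus not shown.

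Values of the first 4 of the genes that passed in HT are given here for fluoxetine females with and without Gm10221 reads. Among WT fluoxetine females, the 3 libraries with the reads had Ndufb2 at 1019 to 1121 and the 2 without at 808 to 932. Ndufab1 was at 1566 to 1665 with and 1344 to 1363 without, Ndufc2 at 1359.8 to 1489.5 with and 1263 to 1268 without, and Ndufv2 at 2459.6 to 2881 with and 2396 to 2405 without. The libraries with the reads were higher for each of the 4 genes, which were singled out after their values were seen, and 3 libraries against 2 were not tested. In a fit with sex as an additive term and the reads as a further term, which rests on the fluoxetine arms, the reads went with 0.26 ± 0.07 for Ndufb2, 0.20 ± 0.05 for Ndufc2, 0.18 ± 0.05 for Ndufv2 and 0.16 ± 0.05 for Ndufab1; none of the 4 passed (limma adjusted p from 0.0655 to 0.0986). Over the 37 members the median of that term was -0.04 and 0 passed, with 0.547% of all genes passing.

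With that term in the fit, 0 members passed for lithium in either genotype (limma; 24 at unadjusted p under 0.05 in WT and 22 in HT), and 3 of all genes did in WT and 0 in HT, while the median difference was 0.16 in WT and 0.18 in HT. The lithium difference of Ndufv2 was then 0.16 ± 0.07 in WT (adjusted p = 0.28) and 0.24 ± 0.06 in HT (adjusted p = 0.083), and that of Ndufb2 0.14 ± 0.10 in each genotype. Without the term but with the same additive sex, 17 and 20 members passed. The share of all genes passing is not given for that fit or for the fluoxetine fits that follow. The change in these counts therefore cannot be read as a result about the members alone. For fluoxetine in HT-labelled mice, 0 members passed with the term (limma; 8 at unadjusted p under 0.05), and 0 in the libraries without the reads, which are males (4 at unadjusted p under 0.05); Ndufv2 differed by 0.08 ± 0.05 in a fit of the males and by 0.32 ± 0.07 in a fit of the females. Among HT fluoxetine mice all 5 females have the reads and all 5 males lack them. There the reads, sex and the smaller number of mice cannot be told apart.

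**Figure D3:**
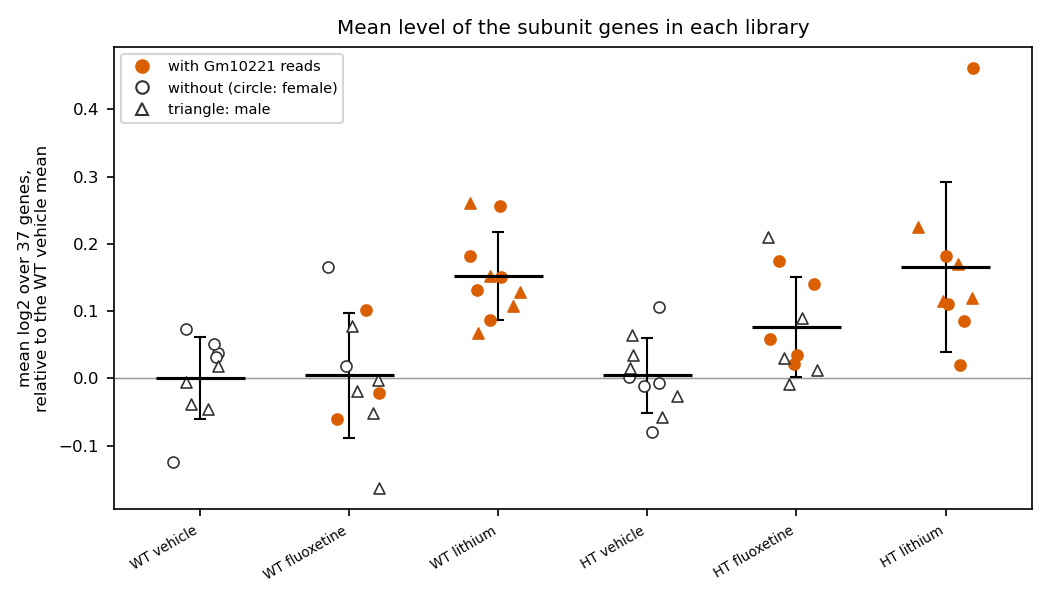
Mean log2 level over the 37 genes in each library relative to the WT vehicle mean, by arm, with bars for mean ± SD; circles are females, triangles males, and orange marks libraries with Gm10221 reads. All 10 WT lithium mice lie above 0.067, and a single HT lithium female stands at 0.46.

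The mean over all 37 genes, in log2 relative to the WT vehicle mean, ran from -0.12 to 0.07 (median 0.02) in WT vehicle, from -0.16 to 0.17 (median -0.01) in WT fluoxetine and from 0.07 to 0.26 (median 0.14) in WT lithium mice. In HT-labelled mice it ran from -0.08 to 0.11 (median -0.0022) with vehicle, from -0.0089 to 0.21 (median 0.05) with fluoxetine and from 0.02 to 0.46 (median 0.12) with lithium. Vehicle and lithium mice overlap in this mean in both genotypes, by contrast with Ndufc2 and Ndufv2 alone. The members took 0.218% ± 0.00619 (SD, n = 9) of normalized reads in WT vehicle mice and 0.241% ± 0.0101 (SD, n = 10) in WT lithium mice, and 0.219% ± 0.00657 (SD, n = 10) and 0.244% ± 0.0226 (SD, n = 9) in the matching HT arms. In whole tissue, fewer cells of a type and less RNA per cell cannot be told apart. HT lithium female 4 was the highest library, and without it 13 members passed for lithium in HT with a median of 0.11. Lithium in WT passed for 8 members without WT lithium male 3, and likewise for 8 without WT vehicle male 3. In every setting that left out 1 library, 8 of the 13 WT genes and 13 of the 19 HT genes passed. The share of all genes passing is not given for the fits without 1 library.

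Lithium was also compared with fluoxetine directly. In WT-labelled mice 16 of 37 members passed, all higher with lithium, against 9.55% of all genes (5.29% higher, 4.26% lower), with a median of 0.13. Ndufv2 was higher by 0.26 ± 0.04 (limma adjusted p = 3.14e-05), Ndufb2 by 0.37 ± 0.06 (adjusted p = 6.21e-05), Ndufb9, which binds the acyl carrier protein, by 0.25 ± 0.05 (adjusted p = 0.000253) and Ndufc2 by 0.24 ± 0.05 (adjusted p = 0.000449). In HT-labelled mice 5 passed, against 6.25% of all genes (3.19% higher, 3.06% lower), with a median of 0.082 that was 0.052 without HT lithium female 4: Ndufv2 (0.22 ± 0.04, limma adjusted p = 0.002), Ndufab1 (0.19 ± 0.04), Ndufc2 (0.20 ± 0.05), Ndufv3 (0.17 ± 0.05) and Ndufa12 (0.19 ± 0.06). Restricted to females with Gm10221 reads on both sides, 2 members passed in WT (5 lithium against 3 fluoxetine mice, median 0.17), against 3.66% of all genes, and 0 in HT, against 0.0781% (limma; 5 against 5, median 0.087, 7 members at unadjusted p under 0.05).

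Genotype had no called effect on these genes. HT-labelled against WT-labelled mice passed for 0 of 37 members and 0% of all genes under each of vehicle, fluoxetine and lithium (limma; 1, 10 and 0 members at unadjusted p under 0.05; 0 with edgeR and 0 with DESeq2). The medians were 0.0078 under vehicle, 0.057 under fluoxetine and 0.00052 under lithium. Under vehicle Ndufa6 differed by 0.15 ± 0.06 (limma adjusted p = 0.95) and Ndufa3 by 0.08 ± 0.06. Under fluoxetine Ndufa4 differed by 0.25 ± 0.08 (adjusted p = 0.66) and Ndufb4 by 0.24 ± 0.08 (adjusted p = 0.67), and under lithium Ndufc2 by 0.08 ± 0.05 and Ndufab1 by 0.07 ± 0.04. The 4 drug by sex interactions passed for 0 of 37 members, and for 0% of all genes apart from 0.0112% (0.0112% higher) for fluoxetine in HT (limma; 1, 2, 1 and 0 at unadjusted p under 0.05 for fluoxetine in WT, fluoxetine in HT, lithium in WT and lithium in HT; 0 with edgeR and 0 with DESeq2).

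The mitochondrially coded core subunits of the membrane arm gave other values. Beside the counts below, 7.47% of all genes passed with lithium in WT (4.34% higher, 3.13% lower). In HT 16.3% did (8.25% higher, 8.03% lower). With fluoxetine 1.38% passed in WT and 3.54% in HT. Lithium counts of assembly factors, regulators and other supply routes are small and near these shares, and are given as description only. Of the 7 mt-Nd genes 0 passed as higher with lithium and 3 were lower in WT, mt-Nd4l (-0.82 ± 0.15, limma adjusted p = 0.000307), mt-Nd3 (-0.58 ± 0.16, adjusted p = 0.014) and mt-Nd6 (-0.41 ± 0.10, adjusted p = 0.00407). In HT mt-Nd4l (-0.72 ± 0.15, limma adjusted p = 0.000696) and mt-Nd6 (-0.48 ± 0.10, adjusted p = 0.000309) were lower. The more abundant mt-Nd1 differed by 0.03 ± 0.07 in WT and 0.12 ± 0.07 in HT and did not pass. Over all arms, mt-Nd4l had a mean of 11367 in the 27 libraries with Gm10221 reads and 18072 in the 31 without. For mt-Nd6 the means were 1578 and 2206, for mt-Nd3 2072 and 2981, and for mt-Nd1 185260 and 179762. Every lithium library has these reads and no vehicle library does, so lithium and whatever the reads mark cannot be told apart here either. The libraries were made from polyadenylated RNA. Subunits of complexes II to V, nuclear genes like the members, passed as higher with lithium for 18 of 38 in WT (median 0.16) and 20 of 38 in HT (median 0.15), and for 4 of 38 with fluoxetine in HT. Cox5b and Cox5a, both of complex IV, differed most clearly, by 0.39 ± 0.05 and 0.29 ± 0.04 in WT and 0.37 ± 0.05 and 0.37 ± 0.04 in HT (limma adjusted p from 3.63e-08 to 4.83e-06). Of 17 complex I assembly factors, which build the enzyme without staying in it, 1 was higher (Tmem70) and 1 lower (Acad9) in WT and 3 were higher in HT with lithium (Tmem70, Ndufaf1 and Ndufaf6). Of 14 regulators of nuclear respiratory genes, 0 passed in WT and 2 were lower in HT with lithium, the coactivators Ppargc1b (-0.28 ± 0.09) and Pprc1 (-0.17 ± 0.06). Both were also lower with fluoxetine, Ppargc1b at -0.37 ± 0.09 in WT and -0.42 ± 0.09 in HT and Pprc1 at -0.30 ± 0.06 and -0.22 ± 0.05 (limma adjusted p from 0.00089 to 0.0181), against the same vehicle mice. Of 12 genes listed for other routes of NADH and ubiquinone supply, 1 was higher in each genotype: Etfdh, which passes electrons to ubiquinone, in WT, and in HT Chchd4, which serves protein import by disulfide relay and does not itself feed either; the genes of these short counts were named after their values were seen. Ndufb1-ps, which GENCODE lists as a noncoding RNA and RefSeq as the protein-coding Ndufb1, lies outside the symbol rule; its lithium difference was 0.27 ± 0.09 in WT (limma adjusted p = 0.0611) and 0.41 ± 0.09 in HT (adjusted p = 0.00121).

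The members also varied together among libraries of the same group. After the mean of each of the 12 groups was taken out, the 666 pairs of members had a median correlation of 0.517 over the 58 libraries, which share their normalization, and 97.9% of pairs were above 0. Ndufb6 followed the mean of the other members most closely (r = 0.870 over 58 libraries) and Ndufs1 least (r = 0.109). The genes most like the member mean were Cox6b1 (r = 0.911), Uqcrq (r = 0.907) and Uqcr11 (r = 0.903), each from a short transcript of 445 to 504 bases. The member mean followed the trend of each library with transcript length and GC content (r = 0.905 over 58 libraries), and the members are short, with a median coding transcript of 704 bases against 2142 for all genes. With those trends removed from each library, the median lithium difference was 0.085 in WT and 0.097 in HT, and 13 members were higher in WT and 16 in HT, with Ndufa7 the 1 lower member in each (named after its values were seen). These are not all the same genes as before that step. Of the 13 that passed before it in WT, 10 still passed, and of the 19 in HT, 14 did. The share of all genes passing is not given for that step. Ndufv2, Ndufc2, Ndufb2 and Ndufab1 differed by 0.37, 0.29, 0.42 and 0.31 in WT after that step. The difference of Ndufc2 was smaller than before it, and those of Ndufv2, Ndufb2 and Ndufab1 were slightly larger. Adding the summed striatal markers to the fit left 8 members passing in WT and 12 in HT, against 4.27% and 11.4% of all genes, with medians of 0.13 and 0.12. With the summed oligodendrocyte markers instead, 11 passed in WT and 17 in HT, against 7.05% and 15.6% of all genes, with a median of 0.14 in each.

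**Figure D4:**
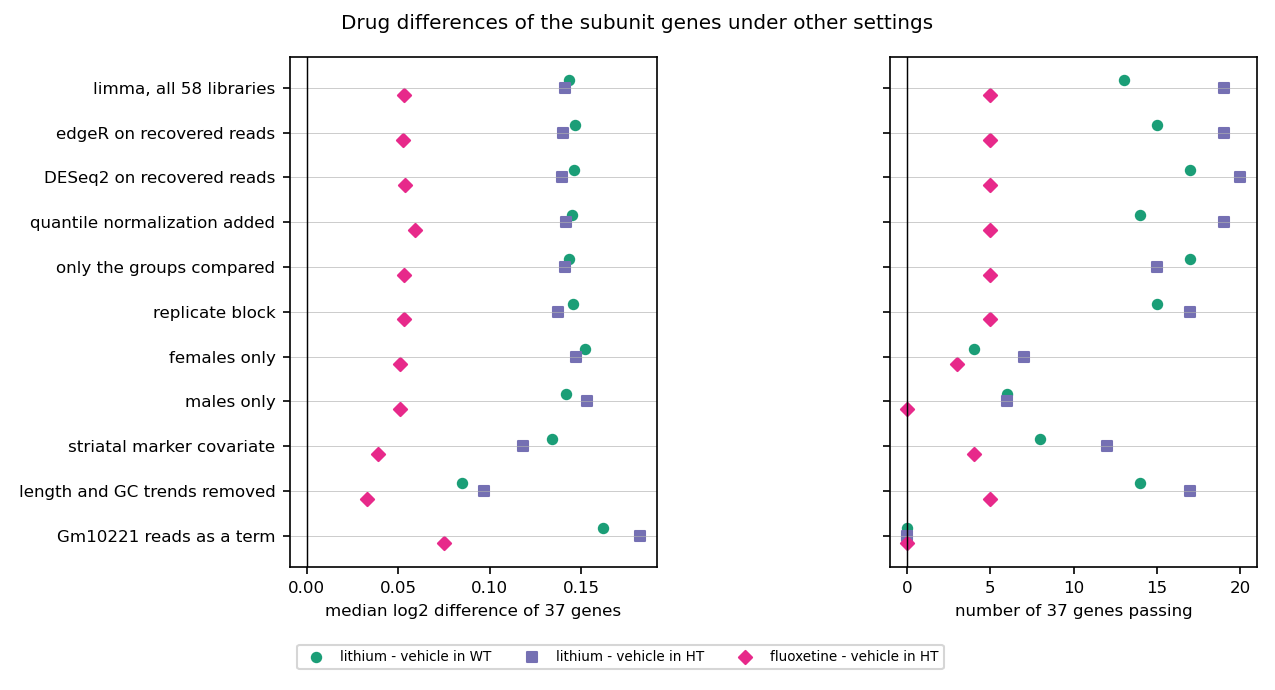
Median log2 difference of the 37 genes (left) and number passing at an adjusted p under 0.05 (right) for lithium in WT, lithium in HT and fluoxetine in HT, under the fit described and 10 other settings. The medians stay above 0 in each setting shown, while the number passing falls to 0 for all 3 comparisons once Gm10221 reads enter as a term. Every lithium library and no vehicle library has these reads, and in HT fluoxetine mice they follow sex. The term therefore overlaps with what is compared, and the fall in the number passing does not separate them.

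Per kilobase of coding transcript, Ndufa4 had the highest level (9862 normalized reads per kilobase) and Ndufs1 the next (6355), followed by Ndufb8 (4729) and Ndufb9 (4711). Ndufb2 (410.5) and Ndufb4 (339) were lowest. Of 36 neighbours in this order, 26 differed by less than 1 SD of their ratio over the 58 libraries, so that most of the order is not resolved. The length used matters: with the longest coding transcript in place of the median one, Ndufs1 went from rank 2 to rank 21 and Ndufb8 from rank 3 to rank 30, while Ndufa4 stayed first and Ndufb2 became the lowest. Ndufb2 also varied most, with a coefficient of variation of 16.8% over all libraries, and Ndufa9 was among the least variable, at 5.15%. Reads of Ndufs5, Ndufs3, Ndufa12, Ndufb11, Ndufb4 and Ndufb9 are the least certain, since 17.2% to 26.5% of their 31-base words occur in pseudogenes or other genes. Ndufb4 shares most with the processed pseudogene Ndufb4c (19.1% of its words), which lies outside the symbol rule. Ndufb4c had a mean of 910 normalized reads, against 329 for Ndufb4. With lithium Ndufb4c was higher by 0.25 ± 0.06 in WT and 0.39 ± 0.06 in HT (limma adjusted p = 0.00462 and 6.2e-06). How reads were split between Ndufb4 and Ndufb4c was not tested, so the level of Ndufb4 and its lithium difference are uncertain.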

How the data were processed

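Bulk RNA sequencing (polyadenylated RNA, strand-marking libraries, per the labels' protocols) of 58 prefrontal cortex samples was analysed from the deposited table of normalized counts. The values are a signal, that is, reads scaled by the authors with 1 size factor per library. The submitters' processing notes name GRCm38 and list DESeq2 1.19.11, Salmon 0.11.2 and R 3.6.0. Values were whole multiples of a library's step within 0.01, so whole reads were recovered (in 11 libraries the step is too near 1 for this test), with a median of 27910000 reads per library. Reads of genes with near-identical copies are split by the quantification and are uncertain.

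limma 3.58.1 with trend was run on log2(value + 1) for the 17925 genes that reached 10 in 4 or more libraries, in 1 fit of 12 groups, weighing the sexes equally; tests are two-sided, ± marks the SE where no SD is named, and the pseudocount understates fold changes of low genes. edgeR 4.0.16 (quasi-likelihood) and DESeq2 1.42.0 on recovered reads, other pseudocounts and filters, and leaving out each library were alternatives, and the fit was tested on simulated data. The members and gene lists were chosen with earlier results of these data known. Differences and SEs are given for the members with the smallest p per comparison (4 where any passed, otherwise 2), the core subunits, Ndufa4 and the extremes of level, apart from 1 member whose own values are not reported here. Names came from GENCODE vM21. Labels do not say that samples are separate litters, so p-values measure the spread between these samples. Sex labels matched for 30 of 30 females and 28 of 28 males, and none of 1653 pairs of libraries agreed within sampling noise.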

Additional observations from a re-analysis of the deposited data

Results flagged for a closer look

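In groups of 4 or 5 mice, 20 values of the member mean or of the named members stood far from the rest of their group. Examined were 216 sets, each the values of the member mean or of 1 of 17 named members in 1 group. Chance flags about 1 in 20, but the members vary together and the mean contains them. The flags are therefore not independent, and their number cannot be set against that rate. HT lithium female 4 gave 6 of them, all high: Ndufa6 at 1965 normalized reads (others 1289 to 1414), Ndufab1 at 2257 (others 1569 to 1699), Ndufb2 at 1407 (others 1022 to 1077), Ndufb3 at 1825 (others 1232 to 1398), Ndufs7 at 1474 (others 1099 to 1164) and Ndufv2 at 3627 (others 2564 to 2871). WT vehicle female 2 gave 4, all low: the mean over members at -0.12 on the log2 scale (others 0.03 to 0.07), Ndufa3 at 756 (others 954 to 1019), Ndufa6 at 1041 and Ndufv3 at 843.

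The other flagged values are single. Ndufb9 was 3785 in HT fluoxetine female 4, 4250.3 in WT lithium male 3 and 2696 in WT vehicle male 3. Ndufb3 was 1419 in HT lithium male 3 and 1370.2 in WT fluoxetine female 5, where Ndufs7 was 1414. Ndufv3 was 1133 in HT fluoxetine female 3, Ndufs3 1782 in HT vehicle female 5, Ndufs1 3795 in HT vehicle male 5 and Ndufs7 1170.3 in WT vehicle male 1.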

How the results depend on the processing

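The median member differences of the 15 comparisons moved by less than the pooled within-group SD of the member mean (0.0849) under all alternatives run, and no named result reversed. That bound is wide. It exceeds the medians for fluoxetine in HT, 0.041 to 0.078 when 1 library was left out, so it does not show them to be stable. Removing the length and GC trends, which lowered the lithium medians, also stayed within it. Counts of members passing moved by over 1.5 times in these cases, where fewer mice or an added term changed the fit. The counts in this paragraph stand without the share of all genes passing in the same fit. A lower count therefore cannot be told apart from fewer calls over all genes. In females alone lithium passed for 4 members in WT and 7 in HT, fluoxetine for 3 in HT, and lithium against fluoxetine for 0 in each genotype (limma; 13 in WT and 5 in HT at unadjusted p under 0.05); in males alone lithium passed for 6 in WT and 6 in HT, fluoxetine for 0 in HT, and lithium against fluoxetine for 9 in WT and 3 in HT. With only the compared groups in the fit, lithium against fluoxetine in HT passed for 1. Without Gm10221 libraries, which leaves only males of the HT fluoxetine arm, fluoxetine in HT passed for 0. With these libraries alone, lithium against fluoxetine, then compared in females, passed for 2 in WT and 0 in HT. With Gm10221 reads as a term, lithium passed for 0 in WT and 0 in HT, fluoxetine in HT for 0, and lithium against fluoxetine for 6 in WT and 0 in HT. With the striatal markers as a covariate (chosen after seeing the data), lithium passed for 8 in WT and 12 in HT and lithium against fluoxetine for 8 in WT; an oligodendrocyte marker covariate, also chosen after seeing the data, moved no count by over 1.5 times.

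The counts in this paragraph also stand without the share of all genes passing in the same fits. A changed count therefore cannot be told apart from a change in calls over all genes. Leaving out each library gave 8 to 16 members for lithium in WT, 13 to 21 in HT, 10 to 21 for lithium against fluoxetine in WT and 3 to 7 in HT, and 4 to 5 for fluoxetine in HT. The count of 10 came without WT fluoxetine female 4, WT fluoxetine male 5, WT lithium female 2 or WT lithium male 3, and that of 3 without HT fluoxetine male 4 or 5, HT lithium female 4 or HT lithium male 2. With the replicate number as a block, lithium passed for 15 in WT and 17 in HT, fluoxetine for 5 in HT, and lithium against fluoxetine for 15 and 5; same-numbered libraries of other groups did not deviate together (median r 0.0017 over 309 pairs, 9 of 58 libraries closest to their own number), so the numbers were not taken as pairs. Of the members, Ndufb4 had the lowest reads, at least 241 normalized reads in each library.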
